A study of Sus scrofa with 6 samples.

Results

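The proteasome and the enzymes that attach and remove ubiquitin were examined in the backfat of intact and castrated male pigs. The group held the genes whose single symbol began with PSMA, PSMB, PSMC, PSMD, PSME, UBE2, USP or UCHL, with PSMB8, PSMB9 and USP18 left out. Each gene was represented by its probe set with the highest mean log2 signal. This gave 77 genes, measured by 106 of the 23999 non-control probe sets, out of 6765 genes with a single symbol. There were 7 PSMA, 8 PSMB, 5 PSMC, 12 PSMD, 4 PSME, 24 UBE2, 15 USP and 2 UCHL genes. The probe sets carry the symbols of the platform annotation, and 102 of the 106 were found again under the same symbol in the RefSeq gene table of Sscrofa11.1.

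The 30 animals were 15 pairs of full brothers bred from Pietrain sires and Landrace dams. In each pair 1 piglet was castrated under anesthesia at 7 days of age (barrow) and its brother kept both testes (boar). Weaning was at 30 days, feed was not restricted, and at slaughter at 175 days the middle layer of the backfat over the 6th rib was sampled. RNA of 5 animals was combined into each of 6 pools, 3 of boars and 3 of barrows, and each pool was put on an Affymetrix array of its own, so that a replicate is a pool and single pigs cannot be seen. Whole tissue was measured, in which fewer cells of a type and less RNA per cell cannot be told apart.

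Ubiquitin is a small protein that a cascade of activating (E1), conjugating (E2) and ligase (E3) enzymes attaches to other proteins. Chains of ubiquitin mark many of them for the proteasome, whose barrel-shaped core of PSMA and PSMB subunits cuts the protein and whose regulatory cap of PSMC and PSMD subunits recognises, unfolds and feeds it in. Alternative activators of the PSME family can bind the ends of the barrel, and deubiquitinating enzymes such as the USP and UCHL families take ubiquitin off again. In fat cells the system turns over regulators of fat storage and insulin signalling.

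Signals are MAS5 intensities on a linear scale, and differences are barrow minus boar on the log2(signal + 16) scale, tested by limma with Benjamini-Hochberg adjustment over 14399 probe sets. Of the 7 adipocyte markers on the array all were tested, with ADIPOQ at 21686 to 23053 in boars and 18955 to 23039 in barrows. The 7 skeletal muscle markers all fell below the filter on dim probe sets. Arrays of a group correlated at 0.978 to 0.988 over the tested probe sets. The log2 ratio of 3' to 5' control signals for actin was 2.04 ± 0.08 (boar) and 2.01 ± 0.14 (barrow), and for GAPDH 1.32 ± 0.06 and 1.28 ± 0.18 (SD, n = 3 each, exact permutation p = 0.8 for both, where 0.1 is the smallest p possible). Barrow pool 2 had the lowest ratio for both, 1.85 and 1.09.

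A single member, UCHL1, passed the test, with a higher signal in barrows. Its boar mean lay just below the lowest mean that was tested, so that it entered the test through its barrow signals, and without a filter on dim probe sets it did not pass (limma adjusted p = 0.080). The count of 1 is therefore a description. Of 77 genes 75 passed the filter, and 1 of them rose and 0 fell (limma, adjusted p under 0.05), while 1.51% of the 5356 genes tested and 1.16% of all probe sets passed. With the replicate number as a block the members gave the same count, 1 higher and 0 lower, where 3.1% of the genes tested passed. By direction, 0.971% of the genes tested were higher and 0.541% lower. At an unadjusted p under 0.05 there were 2 members higher and 3 lower, which is 6.67% of the members, against 13.7% of the genes tested. The pools of boars and barrows did not overlap in 6 members that were higher and 3 that were lower, or 12% of the members, against 19.6% of the genes tested (9.52% higher, 10.1% lower). The median difference of the 75 members was 0.01, with 42 above 0 and 33 below, and that of all genes was -0.01. The interquartile range of the members lay between -0.04 and 0.06, and that of all genes between -0.11 and 0.11. The members' mean log2 signals were higher as well, with a median of 10.62 against 9.47, and the part of signal in the narrower spread was not tested.

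**Figure D1:**
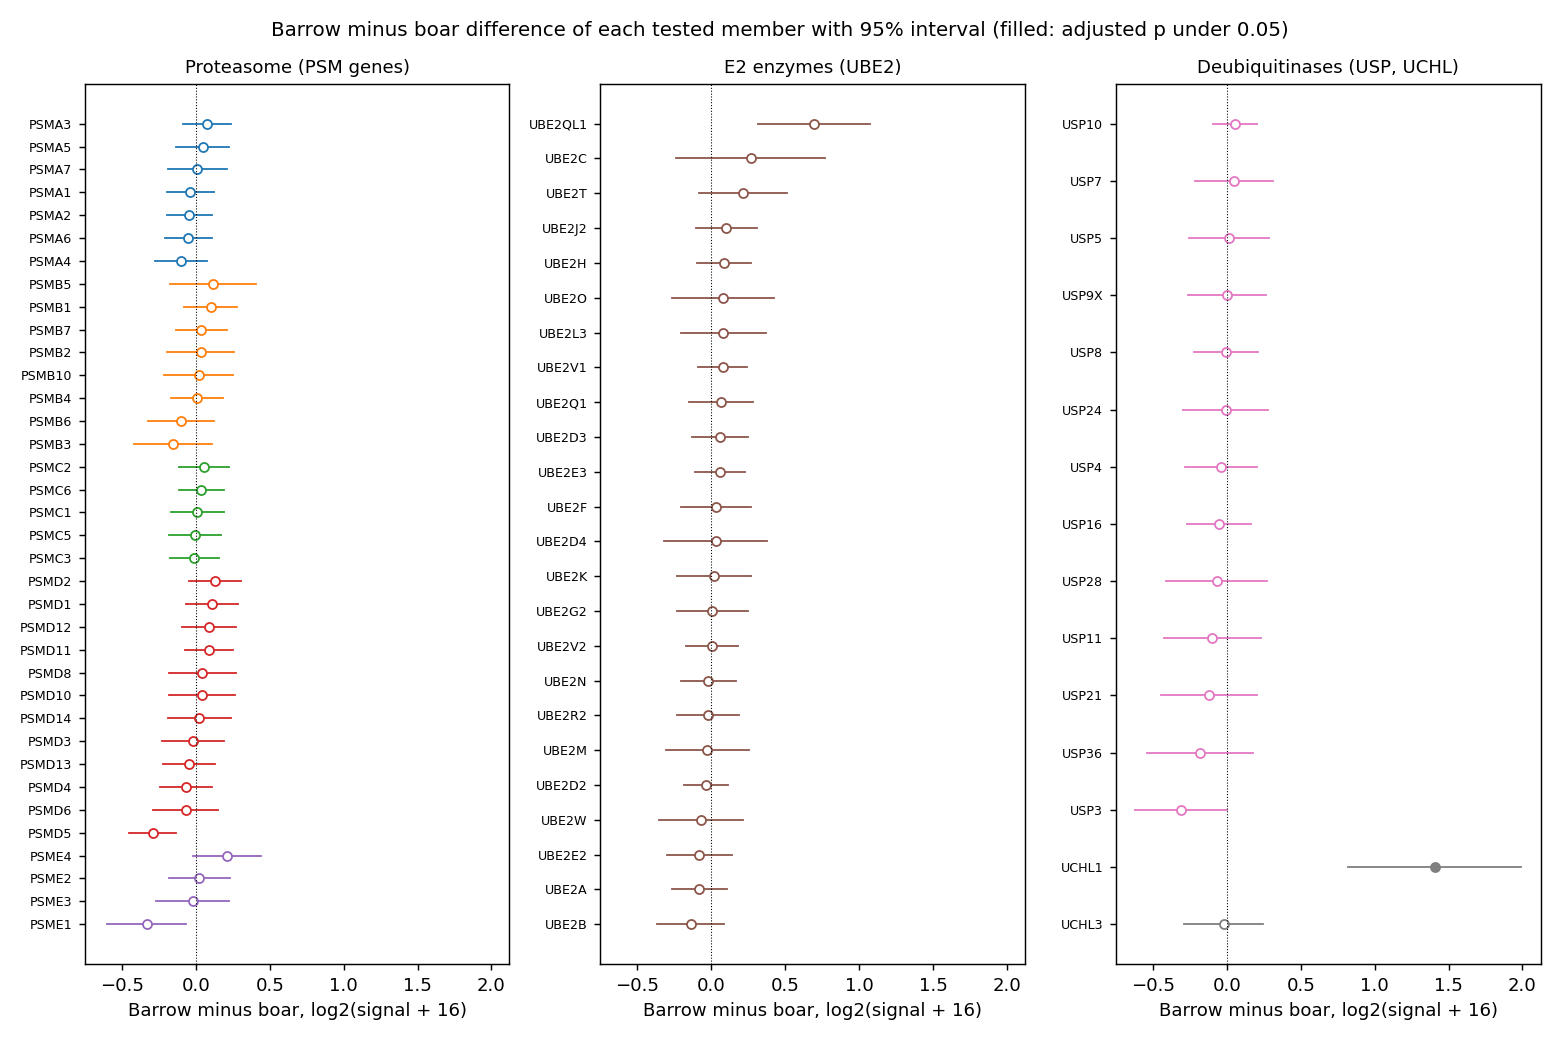
Difference between barrows and boars on the log2(signal + 16) scale for the 75 tested members, with 95% intervals from limma, in panels for the PSM genes, the UBE2 genes and the USP and UCHL genes. UCHL1, at 1.41, is the filled point, and UBE2QL1 at 0.69 is the next highest.

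The 95% interval of the difference lay wholly within a 1.5-fold change in either direction for 70 of the 75 members (93.3%), and within a 1.2-fold change for 31 (41.3%). Over all genes tested the shares were 82.4% and 18.4%. The smaller count depends on the limit, since an increase of 25% or its reciprocal held 55 members (73.3%), against 34.7% of all genes. The median half-width of the interval was 0.217 in the members and 0.255 over all genes. The members were also brighter, and the part of signal in these shares was not tested. Within 1.2-fold lay 6 of 7 PSMA, 4 of 8 PSMB, all 5 PSMC, 5 of 12 PSMD, 1 of 4 PSME, 8 of 24 UBE2, 2 of 13 USP and 0 of 2 UCHL genes. The members that did not lie within 1.5-fold were UCHL1, UBE2QL1, UBE2C, PSME1 and USP3 (UBE2C is named here after its values were seen).

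**Figure D2:**
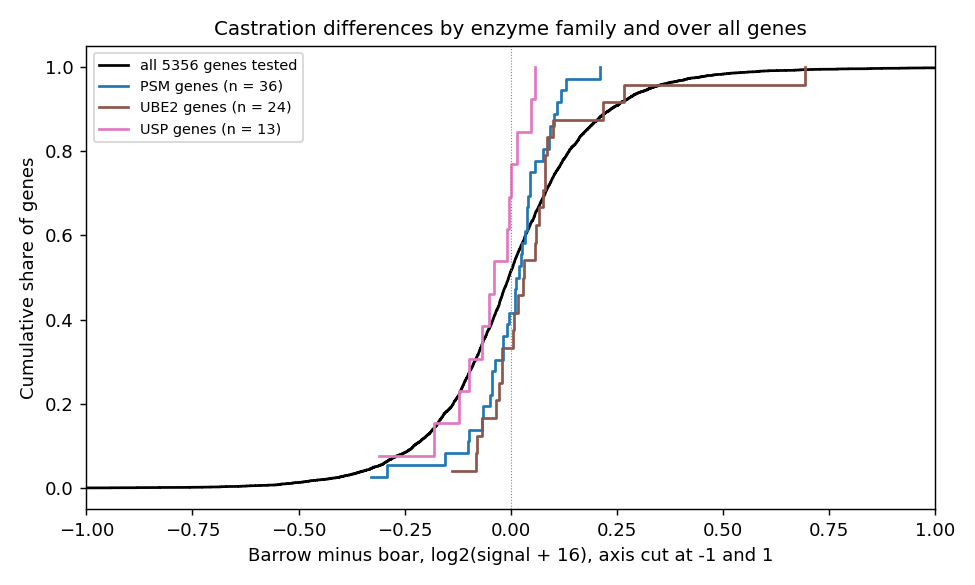
Cumulative share of genes by their difference between barrows and boars on the log2(signal + 16) scale, for the 36 PSM, 24 UBE2 and 13 USP genes tested and for all 5356 genes. The PSM curve rises steeply around 0, from -0.33 to 0.21, while the curve of all genes is wider.

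UCHL1, a ubiquitin hydrolase that is abundant in neurons and neuroendocrine cells, had signals of 70.7, 133 and 83.5 in boar pools 1, 2 and 3. In barrow pools 1, 2 and 3 its signals were 226, 403 and 219.5. All 3 barrow pools lay above all 3 boar pools, and within each kind pool 2 was the highest. The means were 95.7 ± 32.8 in boars against 283 ± 104 in barrows (SD, n = 3), a 2.65-fold ratio with a 95% interval of 1.77 to 3.98 (limma adjusted p = 0.035, and 0.0059 with the replicate number as a block). The difference within each numbered pair was 1.48, 1.49 and 1.24. UCHL1 was measured by 1 probe set, and whether it exceeded background in boars is unknown. The ratio, its interval and its p thus rest on a group at the floor of the test, and the difference of 1.41 was 1.10 with a pseudocount of 64 and 1.55 with 1.

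The call on UCHL1 was lost when 1 of 4 pools was left out, with limma adjusted p = 0.18 without boar pool 1, 0.17 without boar pool 3, 0.074 without barrow pool 1 and 0.066 without barrow pool 3. Without boar pool 2 it was 0.023 and without barrow pool 2 it was 0.0498, where the difference was 1.14. Without a filter on dim probe sets the adjusted p was 0.080, and without an intensity trend 0.12. Over 14 alternatives the difference ran from 1.10 to 1.63, and 8 of them kept the call.

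Markers of other cell types were read in the same pools. Of 8 listed gland epithelium markers 6 were on the array, 4 of them below the filter. The groups did not overlap in 4 of the 6, all higher in barrows, against 9.52% of all genes tested that were higher. That share leaves out genes below the filter. Their summed signal was 260 to 380 in boars and 617 to 1988 in barrows, with PIP, a secreted protein of sweat and other glands, making up most of it in barrow pool 2. PIP had signals of 207, 1508 and 218.5 in barrow pools 1, 2 and 3, and was at most 29.9 in boars. EPCAM, an adhesion protein of epithelia, had 76.2, 93.0 and 71.7 in the barrow pools and less in every boar pool, and CDH1, the epithelial cadherin, had 105, 139 and 74.0 and at most 65.9. KRT19, a keratin of simple epithelia, had 49.6, 59.6 and 77.9 in the barrow pools and at most 10.4 in boars. PIP, EPCAM and CDH1, like UCHL1, were highest in barrow pool 2, as were 24.9% of all genes tested. KRT19 was highest in barrow pool 3. KRT8 and KRT18, also keratins of simple epithelia, overlapped between the groups, with KRT8 highest in boar pool 3 and KRT18 in barrow pool 2. Of 13 neuron and neuroendocrine markers on the array 12 were below the filter. In 3 of the 13 the barrows were higher without overlap, against the same 9.52% of all genes tested. These were NEFL, GAP43 and STMN2, with 41.3 to 60.3, 97.9 to 116 and 28.8 to 59.2 in barrows. In boars they had 4.2 to 28.9, 69.8 to 82.5 and 6.6 to 28.4, so that STMN2 was separated only by 28.8 against 28.4. All 3 lay below the filter. NEFL was highest in barrow pool 2, and GAP43 and STMN2 were highest in barrow pool 1. Of all 13, 8 had differences above 0 and 5 below (ENO2, CHGA, CHGB, RTN1 and SCG5), and the summed signal was 499 to 578 in boars and 570 to 699 in barrows. Of 4 Schwann cell markers on the array 3 were tested, and all 3 had differences below 0, with a summed signal of 1731 to 1979 in boars and 1732 to 1765 in barrows. The part of epithelial or nerve RNA in the UCHL1 difference was not tested.

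**Figure D3:**
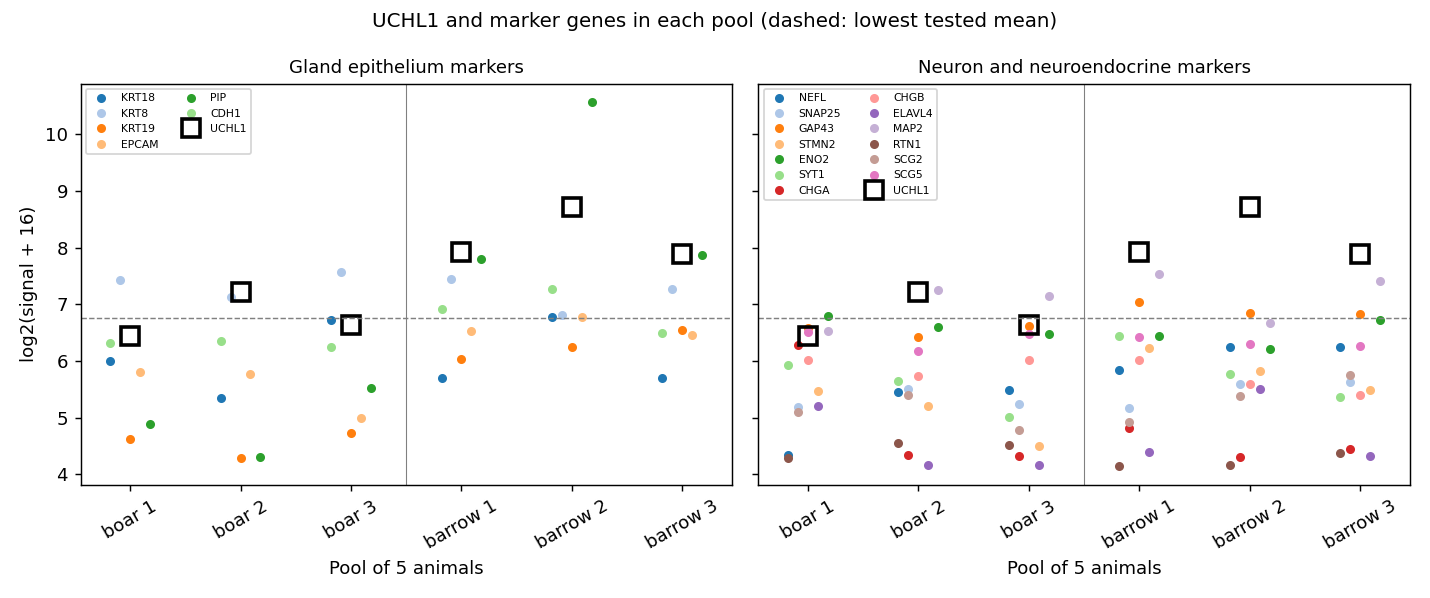
Signal on the log2(signal + 16) scale in each of the 6 pools for UCHL1 (open squares) beside the gland epithelium markers on the left and the neuron and neuroendocrine markers on the right, with the lowest tested mean as a dashed line. UCHL1, PIP, EPCAM, CDH1 and KRT18 are each highest in barrow pool 2, KRT19 in barrow pool 3 and KRT8 in boar pool 3. Most neuron markers lie below the dashed line.

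UCHL3, the other member of this enzyme family on the array and a broadly expressed hydrolase, had signals of 915, 1112 and 855 in boar pools 1, 2 and 3 and 850.0, 1060.3 and 923 in the barrow pools. The groups overlapped, and pool 2 was again the highest of each kind. The difference was -0.02, with a 95% interval of 0.82-fold to 1.19-fold (limma adjusted p = 0.97).

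Of 15 USP deubiquitinases 13 were tested, and 0 passed the threshold (1 at an unadjusted p under 0.05). The shares over all genes tested were 1.51% and 13.7%. Their median difference was -0.04, with 4 above 0 and 9 below, but 6 of 13 lay above 0 under quantile normalization and with array weights. USP3, which removes ubiquitin from histones, had 298, 380.5 and 304 in boars and 248, 287 and 245.5 in barrows. Every barrow pool lay below every boar pool, and the difference of -0.31 did not pass (limma adjusted p = 0.41). USP10, a deubiquitinase of p53, had 4668 ± 227 in boars against 4852 ± 37.0 in barrows (SD, n = 3), a difference of 0.06 (limma adjusted p = 0.80), and its dimmer probe set had -0.29. USP2 and USP30, the latter a deubiquitinase of the mitochondrial surface, lay below the filter. USP2 had 80.0 to 87.1 in boars and 33.8 to 103 in barrows, and USP30 had 50.5 to 54.8 in boars and 37.8 to 51.3 in barrows.

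**Figure D4:**
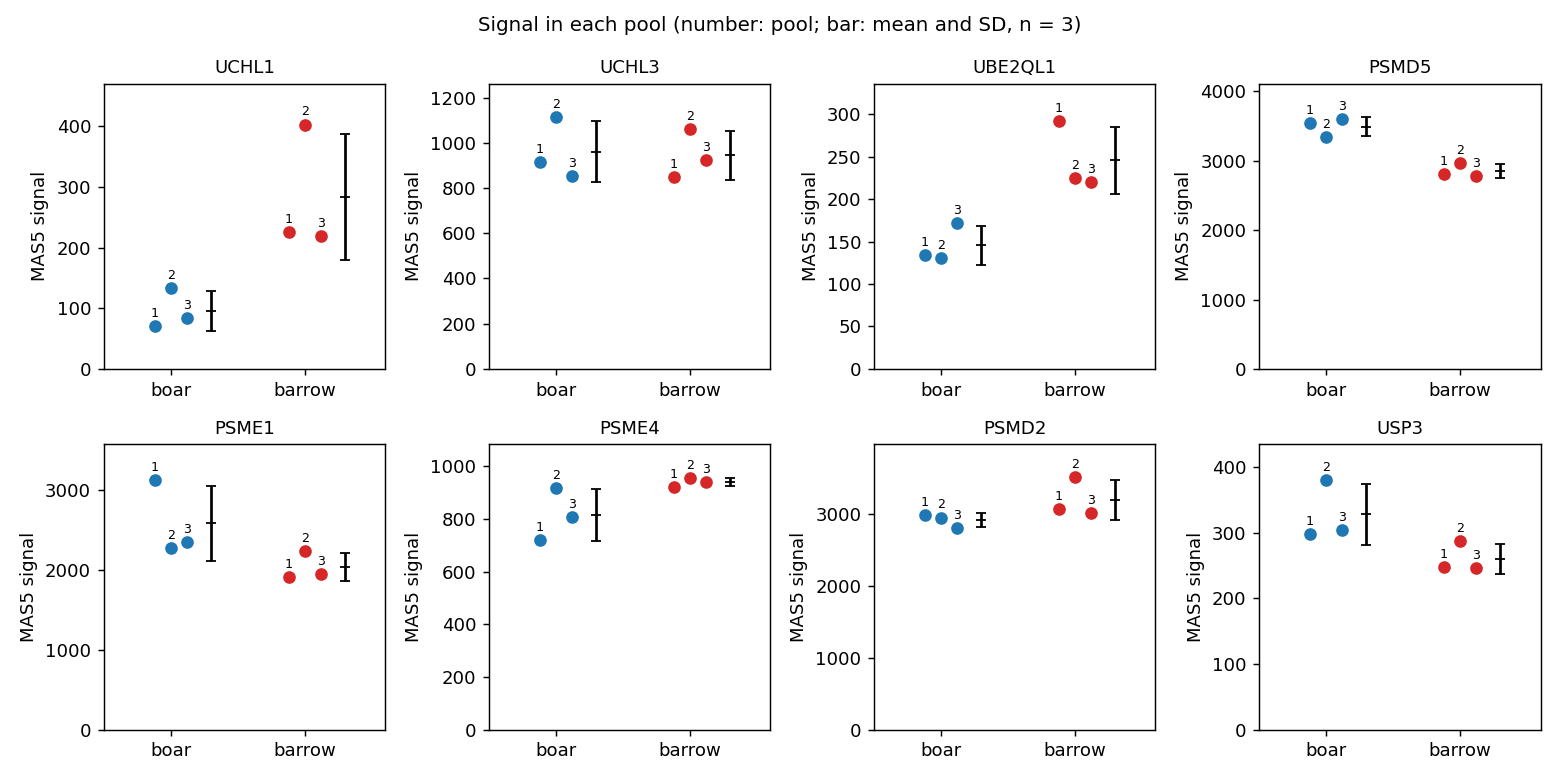
MAS5 signal of 8 members in each pool of 5 animals, with the pool number beside each point and the mean ± SD (n = 3) as a bar. In UCHL1 and UBE2QL1 all 3 barrow pools lie above the boar pools, in PSMD5, PSME1 and USP3 all lie below, and in UCHL3 the groups overlap.

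The subunits of the proteasome core showed no change past the threshold. All 15 core genes were tested, with a median difference of 0.01 and a range of -0.15 to 0.12, and in none did the groups separate (0 at an unadjusted p under 0.05 by limma). Over all genes tested 1.51% passed the threshold, 13.7% had an unadjusted p under 0.05 and 19.6% were separated. Among the outer-ring PSMA subunits PSMA3 had the highest difference, 0.08, from 7631 ± 504 in boars to 8046 ± 464 in barrows (SD, n = 3 each). PSMA4 had the lowest, -0.10 (limma adjusted p = 0.68), with a mean of 3220.5 ± 245 in boars and 3000.2 ± 138 in barrows. Among the inner-ring subunits PSMB5, which carries the chymotrypsin-like activity, had 2945, 2899 and 2290.2 in boars and 3008, 3421 and 2432 in barrows. Pool 3 was the lowest of each kind, and the barrow pool was higher in each numbered pair (difference 0.12, 95% interval 0.89-fold to 1.33-fold, limma adjusted p = 0.79). PSMB3, which has no catalytic site, had 458, 554 and 464 in boars and 410.3, 479 and 430.4 in barrows, lower in each numbered pair (difference -0.15, limma adjusted p = 0.67). PSMB4 had a difference of 0.01, which was -0.03 under quantile normalization.

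The immunoproteasome, in which interferon-induced catalytic subunits replace the standard ones, was followed through PSMB10, which takes the place of PSMB7. PSMB10 had 494, 505 and 469 in boars and 536.5, 474 and 480 in barrows, and the groups overlapped (difference 0.02, 95% interval 0.86-fold to 1.19-fold, limma adjusted p = 0.97). PSMB8, another such subunit outside the group, had 1369, 1011 and 1122 in boars and 1232, 904 and 892 in barrows (difference -0.21, limma adjusted p = 0.62). In the same pools 7 of 13 interferon response genes tested rose, against 0.971% of all genes tested. The summed signal of the 13 was 9563 to 10253 in boars and 13613 to 15827 in barrows. That list also holds PSMB8 and USP18, the deconjugase of ISG15, which had a difference of 0.14 (limma adjusted p = 0.60).

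The 17 PSMC and PSMD genes, which encode the regulatory cap and include assembly chaperones of it, likewise gave 0 calls. Their median difference was 0.03, with 10 above 0 (1 at an unadjusted p under 0.05 by limma, which was PSMD5). Over all genes tested 1.51% passed the threshold and 13.7% had an unadjusted p under 0.05. The 5 PSMC genes, which encode the ATPases that unfold the substrate, ranged from -0.01 for PSMC3 to 0.06 for PSMC2. PSMC2 had 4134 ± 162 in boars against 4309 ± 314 in barrows (SD, n = 3), and 1 of its 2 other probe sets had a difference of 0.19 without overlap of the groups (limma adjusted p = 0.38). PSMD2, a scaffold of the cap that binds ubiquitin shuttle proteins, had 2984, 2949 and 2800.1 in boars and 3066, 3506 and 3007 in barrows. Each barrow pool lay above each boar pool, by a difference of 0.13 (limma adjusted p = 0.58). PSMD11, a lid subunit, had 0.09 in its brightest probe set (limma adjusted p = 0.70), 0.00 in a second and 0.51 in the dimmest, where the groups did not overlap (limma adjusted p = 0.23).

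PSMD5 stood lowest among the PSMC and PSMD genes. It encodes a chaperone that helps the ATPase ring assemble and is not part of the finished proteasome. Its signals were 3542, 3342 and 3598 in boar pools 1, 2 and 3 and 2807, 2968 and 2776.5 in the barrow pools. Every barrow pool was below every boar pool, and the means of 3494 ± 134 and 2851 ± 103 (SD, n = 3 each) differed by -0.29, or 1.22-fold higher in boars (95% interval of the barrow to boar ratio 0.73 to 0.91). The limma adjusted p was 0.093, and 0.072 with the replicate block. With array weights it was 0.027 (-0.31), where 3.86% of the genes tested passed, and without barrow pool 2 it was 0.0497 (-0.32), where 2.6% passed. PSMD10 and PAAF1, further assembly chaperones of the cap, had differences of 0.04 and -0.07, and both are named after their values were seen.

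Of the 4 activators PSME1 and PSME2, the interferon-inducible pair that forms a ring on the core, are described first. PSME1 had 3119, 2270.2 and 2344 in boars and 1912, 2229 and 1950.1 in barrows. The groups did not overlap, boar pool 1 lay far above the others, and the difference was -0.33 (limma adjusted p = 0.29). Without boar pool 1 it was -0.19 (limma adjusted p = 0.71). PSME2 had 1949, 1578 and 1675 in boars and 1749, 1827 and 1692 in barrows, a difference of 0.02 that was -0.02 with array weights (limma adjusted p = 0.96). The difference between PSME1 and PSME2 was not tested. PSME4, a nuclear activator, had 718, 916 and 805 in boars and 922, 953 and 941 in barrows, higher in every barrow pool (difference 0.21, limma adjusted p = 0.46). Without boar pool 1 that difference was 0.13.

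Of the 24 conjugating enzymes 0 passed the threshold (limma, with 1 at an unadjusted p under 0.05), and 16 had a difference above 0, with a median of 0.03. Over all genes tested 1.51% passed and 13.7% had an unadjusted p under 0.05. UBE2QL1, an E2-like protein, had 134, 131 and 172 in boars and 292, 225 and 219.6 in barrows. All barrow pools lay above all boar pools, and boar pool 3 was the highest of its kind. The mean signals were 146 ± 23.1 and 246 ± 40.01 (SD, n = 3 each). The difference on the log2(signal + 16) scale was a 1.62-fold ratio (95% interval 1.24 to 2.10, limma adjusted p = 0.097, also 0.097 with the replicate block). With array weights the limma adjusted p was 0.034, and over 14 alternatives it ran from 0.034 to 0.37. UBE2B, an E2 of DNA repair, had the lowest difference, -0.14 (limma adjusted p = 0.65), with 5372 ± 391 in boars and 4900.0 ± 685 in barrows.

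The groups were separated in 2 further E2 genes, which are named after their values were seen. With UBE2QL1 that made 3 of 24 (12.5%), all higher in barrows. Over all genes tested 9.52% were higher without overlap, and 19.6% were separated in either direction. UBE2T, the E2 of the Fanconi anaemia pathway, had 179 to 189 in boars and 207 to 220.4 in barrows (difference 0.22, limma adjusted p = 0.58). Its dimmer probe set had 104, 94.8 and 136 in boars and 205, 203 and 163 in barrows, with a difference of 0.70 (limma adjusted p = 0.12). UBE2J2, an E2 of the endoplasmic reticulum, had 636 to 697 in boars and 702 to 742 in barrows (difference 0.10, limma adjusted p = 0.73). UBE2C, the E2 of the anaphase-promoting complex and a gene of dividing cells, had 126, 127 and 100.4 in boars and 182, 166.5 and 98.6 in barrows, so that barrow pools 1 and 2 lay above the boars and barrow pool 3 below them (difference 0.27, limma adjusted p = 0.70).

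Some members had a second measurement. Of the 77 genes 20 had more than 1 probe set, and 16 had more than 1 that was tested. In 8 of these 16 all tested probe sets lay on the same side of 0. None of the 21 other tested probe sets passed the threshold in limma, without or with the replicate block, and the 8 remaining ones lay below the filter.

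The members' levels also differed between pools of 1 kind. The median of the 75 members, each taken relative to its own mean, was 0.08 in barrow pool 2 and 0.04 in boar pool 2, and lay between -0.05 and -0.02 in the other 4 pools. Of the 36 proteasome genes 31 (86.1%) were above their own mean in barrow pool 2, against 53.3% of all genes tested, and 23 (63.9%) had their highest signal there, against 24.9% of all genes. In boar pools 1, 2 and 3 the numbers above their mean were 19, 25 and 10 of 36, and in barrow pools 1 and 3 they were 12 and 7. Of the UBE2 genes 21 of 24 lay above their mean in barrow pool 2 and 17 in boar pool 2, and of the USP genes 5 of 13 and 7. PSMB5 and PSMB2 (the second named after its values were seen) were examples of genes that were highest in barrow pool 2.

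Barrow pool 2 is the pool with the lowest 3' to 5' ratios given above, and the part of that in the pattern was not tested. With it left out 13 of the 36 proteasome genes had a difference above 0, against 21 with it, and their median was -0.04 against 0.02. The median of all 75 members was then -0.02, and that of all genes tested -0.01. Within the numbered pairs the median difference of the 36 proteasome genes was -0.01, 0.07 and 0.00 for pairs 1, 2 and 3, and that of the 13 USP genes was 0.02, -0.13 and 0.02. The median of the whole group thus changed sign with a single pool, and this was not particular to barrow pool 2. Without boar pool 3 it was -0.009, with 16 of the 36 proteasome genes above 0. With array weights, which leave no pool out, it was -0.0001, again with 16 of the 36 above 0. The weight of each pool is not given here, so that value cannot tell which pool it rests on.

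**Figure D5:**
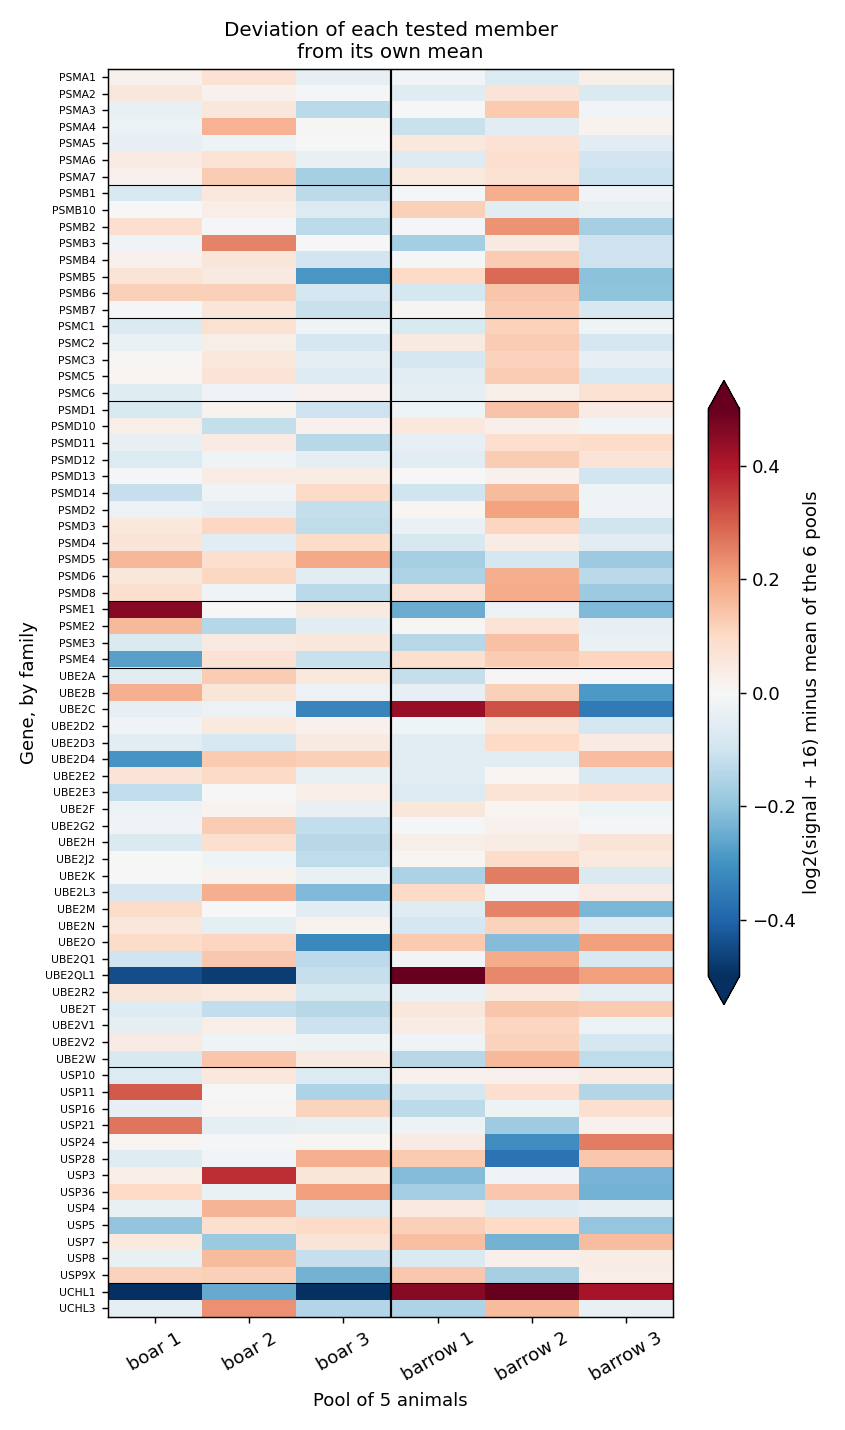
Deviation of each of the 75 tested members from its own mean over the 6 pools, on the log2(signal + 16) scale, with the 3 boar pools on the left and the 3 barrow pools on the right and lines between families. The column of barrow pool 2 is mostly above the mean in the PSM and UBE2 genes, and UCHL1 and UBE2QL1 are low in boars and high in barrows.

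Other genes of the ubiquitin pathway were taken from a list of 109 symbols, in which some genes also appear under an older symbol. Of the symbols 51 were on the array and 49 were tested. Of these 1 rose, ISG15, a ubiquitin-like protein made under interferon, and 0 fell, and the median difference was 0.03. Over all genes tested 0.971% rose and 0.541% fell. ISG15 had 654, 797 and 604 in boars and 2623, 1533 and 2344 in barrows (difference 1.61, limma adjusted p = 0.0027), and barrow pool 2 was the lowest of its kind, unlike in UCHL1. The genes UBB and RPS27A, which encode ubiquitin itself, had differences of 0.09 and 0.04. The 4 E1 genes tested serve ubiquitin-like proteins, UBA2 and SAE1 for SUMO and UBA3 and NAE1 for NEDD8, and the E1 of ubiquitin itself was not analysed here. All 4 had differences below 0, from -0.15 to -0.09. In 3 of the 4 the groups did not overlap, all lower in barrows. Over all genes tested 10.1% were lower without overlap, and 19.6% were separated in either direction. All 6 tested genes of ubiquitin shuttles and the segregase complex, VCP and SQSTM1 among them, had differences above 0, from 0.04 to 0.19. The groups were separated in 0 of the 6, and 2598 of the 5356 genes tested lay above 0. FAF1, of the same list but below the filter, had -0.42. Of 15 E3 genes tested 8 lay above 0, as did 5 of 11 other deubiquitinases and 2 of 5 genes of proteasome assembly and inhibition. Genes of these lists other than ISG15 are named after their values were seen, and 0 of them passed the threshold in limma, with or without the replicate block.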

How the data were processed

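Signals of 24123 probe sets on 6 Affymetrix Porcine arrays were used as the authors deposited them. They are linear intensity values made with MAS5 per the submitters' processing notes (version, settings and genome build not given in the sources used here). The 2% trimmed mean was 500.09 to 500.10 on every array, as tested on the values. No counts or detection calls were used, so depth is unknown, and precision is limited by the 6 arrays. The 124 control probe sets were left out. The scale was log2(signal + 16), on which differences between dim signals come out too small. Fold ratios and their intervals were taken from differences on this scale. The upper 60% of probe sets by mean over all arrays were tested (mean signal of about 92.7 or more), which left 14399. Barrow was compared with boar in limma 3.58.1 (R 4.3.3; lmFit, eBayes with an intensity trend, 2-sided, Benjamini-Hochberg, threshold 0.05, 95% intervals).

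The members, gene lists and tests were chosen with earlier results of these data known. Named genes were all UCHL genes, members past the threshold with or without the block, per family the highest, lowest and brightest member, PSMB10, PSME1 and PSME2, and pathway genes past the threshold. Exceptions are marked. The 1.2-fold, 25% and 1.5-fold limits set beside the intervals were chosen after the values were seen. The median differences of the marker lists were 0.03 (adipocyte, 1 of 7 tested rose), -0.17 (Schwann cell), -0.23 (macrophage), -0.29 (endothelium, 1 of 7 fell), -0.24 (lymphocyte), 0.03 (fibroblast), 0.23 (neuron, 1 tested) and 0.49 (interferon response). Of the gland epithelium markers 2 were tested, PIP (3.84, above the filter through its barrow signals) and KRT8 (-0.20).

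Pools carry numbers 1 to 3 in the labels. Residuals of boar and barrow pools of the same number correlated at 0.12, 0.17 and 0.26, all above the minimum of 0.1, so pools of 1 number count as a pair here, and the replicate number served as a block in an alternative fit. Per the labels' design text, the brothers of the boars in a pool were combined in a barrow pool, but it does not say that a shared number marks such brothers. On simulated arrays of this comparison (14399 probe sets) the test called 13 of 67 with a simulated log2 change of 0.5, 44 of 67 with 1 and 63 of 66 with 2, and 4 with none.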

Additional observations from a re-analysis of the deposited data

How the results depend on the processing

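The counts depended on the setting. Over all probe sets 167 changed, and 96 without a filter, 32 without an intensity trend, 425 with array weights, 338 with the replicate block and 24 to 291 when 1 pool was left out. The count of members that rose, 1, was 0 without a filter, 0 in the upper 40% (where UCHL1 was not tested), 0 without an intensity trend and 2 with array weights, and 0 to 1 with 1 pool left out. The count that fell, 0, was 1 with array weights and 0 to 1 with 1 pool left out. The UCHL1 difference was 1.41 (limma adjusted p = 0.080) without a filter and 1.41 (limma adjusted p = 0.12) without an intensity trend, and 1.14 to 1.63 with 1 pool left out. Of members that passed under no setting, PSMB4 had -0.028 under quantile normalization and -0.014 with array weights, PSME2 -0.022 with array weights and USP10 -0.12 as the mean of its probe sets, each against a value above 0. With 1 pool left out the differences were -0.11 to 0.087 for UCHL3, -0.068 to 0.031 for PSMC3, -0.041 to 0.11 for PSME2, -0.050 to 0.066 for PSMB4 and -0.035 to 0.052 for PSMB10. The replicate block changed no call among the members or the pathway genes. The median difference of the members stayed within the spread between pools (SD 0.06) under all 15 alternatives. With pseudocounts of 1 and 64 the UCHL1 difference was 1.55 and 1.10. The boar mean of UCHL1 lies just below the lowest mean tested, so its signal over background is limited. The causes of these shifts were not tested.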
